A study of Mus musculus with 20 samples.

Results

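The genes described here are 10 components of the circadian clock and its output: Arntl (also named Bmal1), Clock, Per2, Per3, Cry1, Cry2, Nr1d1, Dbp, Tef and Hlf. They were taken by symbol, and all 10 were found among the 51826 identifiers of the deposited count table. The series holds 20 total RNA libraries of mouse tumour tissue from a study of sarcoma metastasis: 6 primary tumours and 14 metastases to the lung. The label of each metastasis names the primary tumour it belongs to. Sets 1 and 2 have 4 metastases each, sets 3 and 6 have 2 each, and sets 4 and 5 have 1 each. All animals are labelled as of mixed genetic background. No allele, promoter, treatment or age is named in the labels, so none can be given for either group. The hour of day at which a tissue was taken is not given in the sources used here either. A metastasis is named below by its set and its number in the labels, so that metastasis 3-2 is the second of set 3; the metastasis of set 5 has no number. Libraries held 20603620 to 36824370 counts, and levels are given as CPM, the count of a gene scaled to the size of its library, after TMM scaling, an edgeR procedure that evens out the composition of libraries.

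The mammalian clock is a loop of transcription and repression that runs in nearly every cell, lung and muscle included. ARNTL (BMAL1) and CLOCK bind E-boxes and switch on Per, Cry, Nr1d1 and Dbp; the PER and CRY proteins then repress ARNTL and CLOCK, and NR1D1 (REV-ERB alpha) represses Arntl through the element that ROR proteins activate. Arntl RNA therefore peaks at the opposite time of day to Nr1d1 and Dbp in a running clock. DBP, TEF and HLF are the PAR bZIP factors, which carry the rhythm to output genes through D-boxes.

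Promoter windows were searched on both strands for 4 elements: the E-box CACGTG, the D-box TTATGTAA or TTACGTAA, the core of the ROR element AGGTCA, and the cAMP response element TGACGTCA. All members but Per2 matched the RefSeq table of windows. Each window runs from 250 bases before to 50 bases after a gene start in GRCm38.p6, the build named mm10. Of all 32851 windows of that length, 7.15% hold the E-box, 1.06% a D-box, 16.3% the ROR core and 1.79% the cAMP response element. The 5 windows below are examples, each of which holds a match to 1 of these elements. Sequences read 5′ to 3′ on the gene's strand, and capitals mark the match.
Arntl, chr7:113207261-113207560, plus strand, ROR core: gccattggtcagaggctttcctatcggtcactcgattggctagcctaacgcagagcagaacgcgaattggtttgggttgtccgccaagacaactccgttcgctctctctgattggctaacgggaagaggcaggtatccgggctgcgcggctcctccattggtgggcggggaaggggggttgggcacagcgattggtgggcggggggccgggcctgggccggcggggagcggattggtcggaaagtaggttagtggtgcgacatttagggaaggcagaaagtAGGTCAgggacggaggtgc
Per3, chr4:151044616-151044915, minus strand, D-box at 2 places: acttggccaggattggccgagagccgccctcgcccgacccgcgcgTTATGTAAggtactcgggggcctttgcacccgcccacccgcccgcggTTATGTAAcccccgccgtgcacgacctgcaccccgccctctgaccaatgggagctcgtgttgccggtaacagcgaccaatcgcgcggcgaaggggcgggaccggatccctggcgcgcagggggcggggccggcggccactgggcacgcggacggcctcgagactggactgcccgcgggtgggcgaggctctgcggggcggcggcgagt
Cry1, chr10:85185005-85185304, minus strand, E-box: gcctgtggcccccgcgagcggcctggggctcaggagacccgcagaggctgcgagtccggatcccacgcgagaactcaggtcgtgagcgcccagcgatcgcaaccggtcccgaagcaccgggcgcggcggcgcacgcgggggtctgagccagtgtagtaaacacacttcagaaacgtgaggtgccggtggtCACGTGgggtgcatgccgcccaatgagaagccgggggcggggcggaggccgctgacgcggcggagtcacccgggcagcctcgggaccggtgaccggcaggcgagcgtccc
Tef, chr15:81811164-81811463, plus strand, E-box: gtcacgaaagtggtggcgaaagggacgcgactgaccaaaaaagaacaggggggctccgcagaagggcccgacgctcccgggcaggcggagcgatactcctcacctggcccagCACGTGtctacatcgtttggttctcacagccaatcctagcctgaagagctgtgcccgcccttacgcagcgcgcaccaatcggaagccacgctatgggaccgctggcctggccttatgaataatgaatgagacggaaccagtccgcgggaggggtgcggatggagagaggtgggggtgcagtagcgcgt
Hlf, chr11:90390868-90391167, minus strand, cAMP response element: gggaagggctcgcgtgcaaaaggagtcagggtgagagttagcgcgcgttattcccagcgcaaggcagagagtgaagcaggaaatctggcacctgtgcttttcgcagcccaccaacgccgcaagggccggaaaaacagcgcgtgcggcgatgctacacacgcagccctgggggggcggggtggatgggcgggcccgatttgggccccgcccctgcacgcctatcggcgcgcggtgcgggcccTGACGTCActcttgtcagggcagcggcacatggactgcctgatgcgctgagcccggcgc
The D-boxes of Per3 start 205 and 158 bases before the gene start, the E-box of Cry1 60 bases before it, and the ROR core of Arntl 32 bases after it. The window of the other annotated start of Arntl, chr7:113207215-113207514, holds none of the 4 elements. The window of the other annotated start of Tef, chr15:81802423-81802722, also holds an E-box, and 1 of the 3 windows of Clock holds the ROR core. No match to these letters lay in the windows of Nr1d1, Dbp and Cry2. These matches describe the letters of the windows and are not measurements of binding.

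Some libraries stood apart before any gene was compared. Genes were ranked by the GC content of their transcripts, and the median deviation of the GC-richest decile (over 57.3% GC) minus that of the GC-poorest decile (under 40.5%) was taken for each library as its GC tilt. It was -4.82 on the log2 scale in primary tumour 4, -3.38 in metastasis 4-1 and -2.71 in metastasis 3-2, so GC-rich transcripts were low in these 3 libraries; it was -0.49 in primary tumour 6 and between 0.33 and 1.18 in the other 16. Among the clock genes, transcript GC ran from 40.9% in Clock and 45.1% in Hlf to 56.8% in Nr1d1 and 61.6% in Dbp. Fold changes are therefore given also with an offset for GC content and without those 3 libraries. Primary tumours 4 and 6 also differed in tissue markers, whose lists were chosen with earlier results of these data known. The 14 skeletal muscle genes summed to 46.3 and 15.9 CPM there and to between 4811 and 10925 CPM in the other 4 primary tumours. They summed to 54.9 to 4026 CPM in metastases, where 9 of the 14 were called lower (edgeR, adjusted p under 0.05), beside 6.44% of all genes tested. The 5 endothelial genes summed to 1.98 and 2.89 CPM in primary tumours 4 and 6 and to at least 221 CPM in the other 4. Lung markers were higher in metastases: the 16 lung epithelial genes summed to 249.04 to 15253 CPM (median 1625) against 7.22 to 259.9 CPM (median 92.7) in primary tumours. In the same fit 15 of the 16 were called higher in metastases, beside 7.34% of all genes tested. In bulk tissue, fewer cells of a type and less RNA per cell cannot be told apart.

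**Figure D1:**
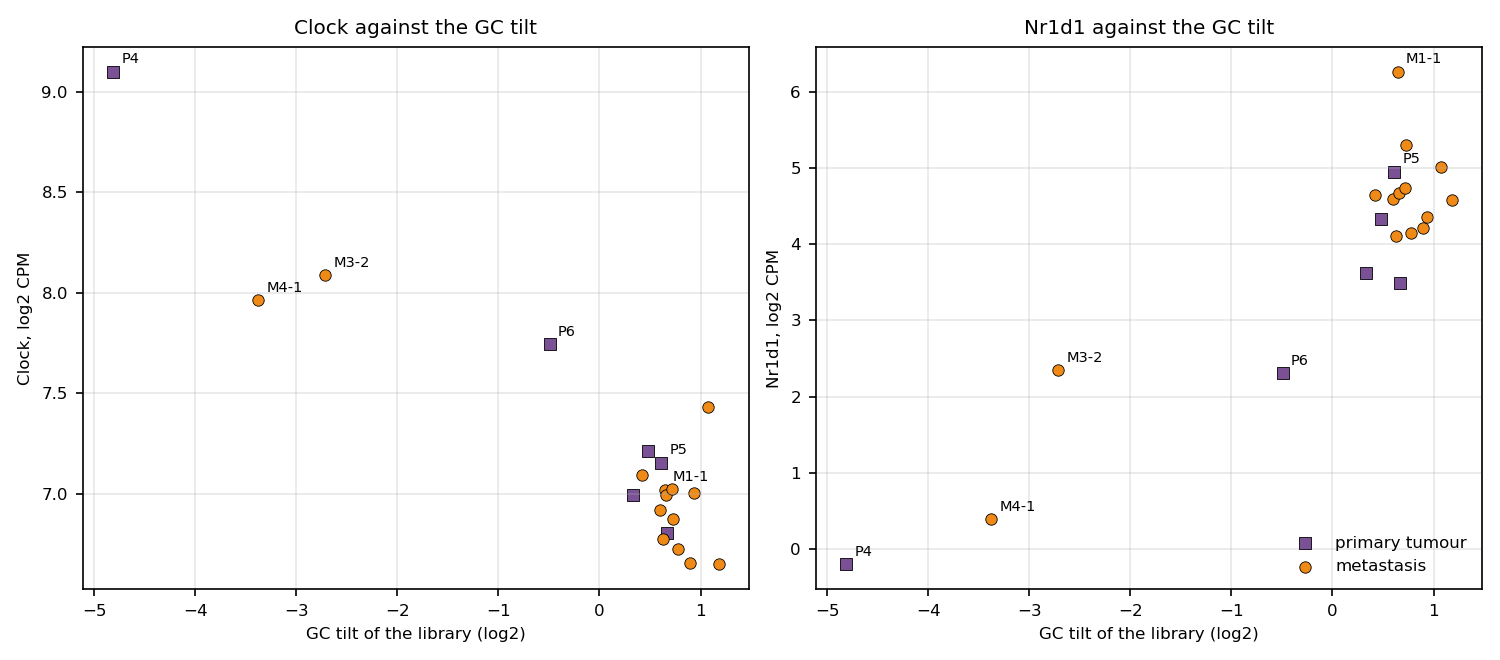
Clock (left) and Nr1d1 (right) in log2 CPM on the vertical axes against the GC tilt of each library (log2, median deviation of GC-rich minus GC-poor genes); squares are primary tumours (P), circles metastases (M). Clock is highest and Nr1d1 lowest in primary tumour 4, with a tilt of -4.82, and the tightly grouped libraries at the right have tilts above 0.

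Levels were first compared between genes as CPM per kilobase of exon. In metastases the order was Tef (14.5 ± 3.34, SD, n = 14), Cry1 (11.4 ± 1.18), Clock (10.4 ± 3.88), Nr1d1 (8.23 ± 5.80), Arntl (4.81 ± 0.678), Cry2 (3.48 ± 4.09), Per2 (2.95 ± 1.84), Per3 (2.32 ± 1.03), Dbp (1.60 ± 0.870) and Hlf (0.983 ± 0.429). In primary tumours Clock led (15.7 ± 12.2, n = 6), followed by Arntl (9.72 ± 6.79), Tef (8.63 ± 3.58) and Cry1 (8.51 ± 2.04). Below them came Nr1d1 (4.35 ± 3.54), Cry2 (2.51 ± 1.15), Dbp (2.30 ± 1.54), Per3 (1.97 ± 0.783), Per2 (1.07 ± 0.426) and, again last, Hlf (0.422 ± 0.447). The ranges of each pair of neighbours in either order overlapped between libraries. Within libraries the order was steadier for some pairs: Per3 stood above Per2 in 6 of 6 primary tumours, and Arntl stood above Cry2 and Per3 above Dbp in 13 of 14 metastases. For other neighbours it was mixed, as for Dbp and Per3 in primary tumours (3 of 6) and Cry2 and Per2 in metastases (7 of 14). Arntl stood above Tef, and Tef above Cry1, in only 2 of 6 primary tumours, so most tumours ran against the order of these means. Arntl was at 17.6 and 19.1 CPM per kilobase in primary tumours 4 and 6, against 3.56 to 6.37 in the others.

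The positive arm is Arntl and Clock. Arntl (ENSMUSG00000055116.8, chr7:113207465-113314126, plus strand) encodes the bHLH-PAS partner of CLOCK. Its level was 26.8 CPM in the lowest primary tumour, 46.1 at the median and 143.7 in the highest, and 26.0, 37.7 and 42.8 CPM in metastases. The 2 high tumours were primary tumours 6 (143.7 CPM) and 4 (132.7 CPM). Primary tumours 1, 2 and 3 (43.4, 44.2 and 47.9 CPM) lay slightly above the highest metastasis. Primary tumour 5 (26.8 CPM) lay within the range of the metastases. The metastases were lower than their own primary tumour in 13 of 14 libraries, but the log2 fold change of -0.75 (SE 0.256) missed the threshold (edgeR quasi-likelihood test, adjusted p = 0.062). It was -0.64 (adjusted p = 0.0932) without the 3 tilted libraries. Without sets 4 and 6 it was -0.19 (adjusted p = 0.579), and with the GC offset -0.81 (adjusted p = 0.0397). It also passed without set 5 (-0.94, adjusted p = 0.0261) and without metastasis 3-2 (-0.81, adjusted p = 0.0367), by DESeq2 (-0.75, adjusted p = 0.0235), and with the mean of the muscle genes as a covariate (-1.30, adjusted p = 0.000463). Clock (ENSMUSG00000029238.11, chr5:76209868-76304792, minus strand) ranged from 112 through a median of 145 to 549 CPM in primary tumours and from 100.2 through 128 to 272 CPM in metastases. Its 3 highest values were in the 3 libraries with the steepest GC tilt, primary tumour 4 (549 CPM), metastasis 3-2 (272 CPM) and metastasis 4-1 (249.5 CPM). The log2 fold change of Clock was -0.27 (SE 0.215, adjusted p = 0.447), -0.13 (adjusted p = 0.5) with the GC offset and -0.24 (adjusted p = 0.274) without the 3 tilted libraries.

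The fit across all genes, with the matched set as a block, called 3 of the 10 genes higher in metastases and 0 lower (adjusted p under 0.05 over 18452 genes). Of all genes tested, 7.34% were called higher and 6.44% lower. The median log2 fold change of the 10 genes was 0.33, beside 0.00 over all genes tested. The genes called were Per2, Tef and Hlf.

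Per2 (ENSMUSG00000055866.9, chr1:91415982-91459324, minus strand) encodes a repressor of ARNTL and CLOCK whose RNA also responds to hormones and cyclic AMP. It measured 2.99 CPM in the lowest primary tumour, 5.91 at the median and 10.6 in the highest, against 5.87, 15.8 and 50.7 CPM in metastases. In all, 11 metastases exceeded every primary tumour, and all 14 exceeded their own. The rise was 2.36-fold (log2 fold change 1.24, SE 0.320, adjusted p = 0.0184), and the difference between set mean and primary tumour ran from 0.60 in set 6 to 2.19 in set 1 on the log2 scale, above 0 in 6 of 6 sets. It held with the GC offset (1.08, adjusted p = 0.027) and without primary tumour 4 and metastases 4-1 and 3-2 (1.38, adjusted p = 0.014). The fold change was 0.47 (adjusted p = 0.579) with the mean of the lung epithelial genes as a covariate. Per2 also missed the threshold without set 1 (0.99, adjusted p = 0.0806), without set 2 (1.32, adjusted p = 0.0683) and with the metastases of each set summed (1.26, adjusted p = 0.0748).

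Per3 (ENSMUSG00000028957.12, chr4:151003652-151044665, minus strand), a PER family member with 2 D-boxes in the window printed above, did not pass. It spanned 12.6 to 33.4 CPM in primary tumours (median 16.3) and 7.53 to 51.0 CPM in metastases (median 21.1), with a log2 fold change of 0.23 (SE 0.277, adjusted p = 0.632). It was 0.18 (adjusted p = 0.712) with the GC offset and 0.25 (adjusted p = 0.614) without the 3 tilted libraries. The highest primary tumour was number 5 and the highest metastasis 1-1. Per3 lies within Camta1, with which it shares no exon.

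Cry1 and Cry2 encode the cryptochromes, the partners of the PER proteins in repression. Cry1 (ENSMUSG00000020038.10, chr10:85131700-85185064, minus strand) measured 19.3, 30.9 and 36.0 CPM (lowest, median and highest) in primary tumours and 33.7, 37.3 and 46.9 CPM in metastases. As many as 10 metastases were above every primary tumour. The log2 fold change of 0.43 (SE 0.148) fell just short of the threshold (adjusted p = 0.0631), and passed it without primary tumour 4 and metastases 4-1 and 3-2 (0.52, adjusted p = 0.0231). It passed as well without set 3 (adjusted p = 0.0393), set 4 (0.0311), metastasis 3-1 (0.0471) or metastasis 3-2 (0.0448), and by DESeq2 (0.0127). It did not pass with the GC offset (0.39, adjusted p = 0.11), without set 1 (0.29, adjusted p = 0.317) or with the muscle covariate (0.24, adjusted p = 0.275). Cry1 varied little among metastases: its SD of 0.143 on the log2 scale stood at the 0.135th percentile of 18452 genes, and that of Arntl (0.218) at the 1.57th. In primary tumours the same SDs stood at the 10.8th and 53.6th percentiles. With the GC offset the SD among metastases was 0.264 for Cry1 and 0.206 for Arntl. Cry2 (ENSMUSG00000068742.11, chr2:92403646-92434043, minus strand) ran from 3.42 to 26.2 CPM (median 16.5) in primary tumours and from 3.26 to 110.4 CPM (median 16.6) in metastases, with a log2 fold change of 0.04 (SE 0.397, adjusted p = 0.959). It was -0.07 (adjusted p = 0.928) with the GC offset and 0.15 (adjusted p = 0.845) without the 3 tilted libraries. Both extremes lay outside the other libraries: metastasis 1-1 at the top, and primary tumour 4 and metastasis 4-1 at the bottom.

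**Figure D2:**
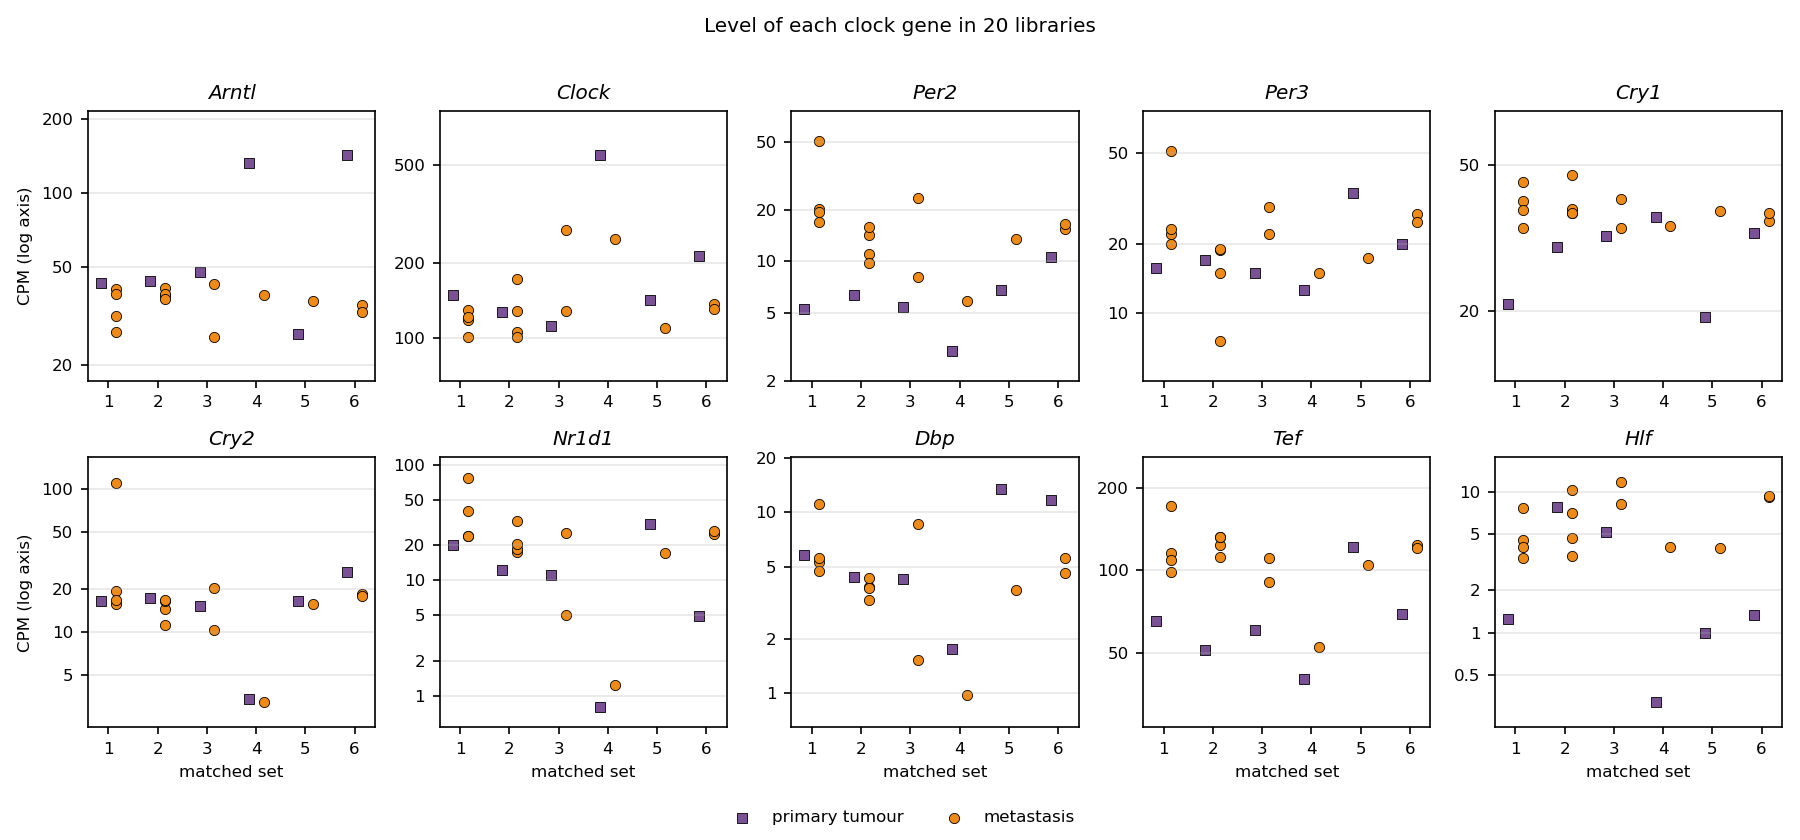
Each panel shows 1 gene, with the matched set on the horizontal axis and CPM on a logarithmic vertical axis; squares are primary tumours and circles single metastases. Per2 circles lie above the square of their set in all 6 sets. Arntl squares of every set but set 5 lie above every metastasis, those of sets 4 and 6 farthest, at 132.7 and 143.7 CPM.

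Nr1d1 (ENSMUSG00000020889.11, chr11:98767932-98775333, minus strand), encodes the nuclear receptor that represses Arntl. It measured 0.802 CPM in the lowest primary tumour, 11.7 at the median and 31.0 in the highest, and 1.25, 24.1 and 77.2 CPM in metastases. The 4 lowest libraries were primary tumour 4 (0.802 CPM, 15 counts), metastasis 4-1 (1.25 CPM), primary tumour 6 (4.88 CPM) and metastasis 3-2 (5.02 CPM), the same 4 with a GC tilt below 0. Its SD among metastases was 1.39 on the log2 scale, at the 86.9th percentile, and 0.736 with the GC offset, below that of Cry2 (0.79). Among metastases, 12 of 14 exceeded their own primary tumour, but the log2 fold change of 0.80 (SE 0.413) did not pass (adjusted p = 0.215), and the difference in set 5 was -0.85. The fold change of Nr1d1 was 0.66 (adjusted p = 0.174) with the GC offset and 1.00 (adjusted p = 0.103) without the 3 tilted libraries. With the muscle covariate it was 1.54 (adjusted p = 0.00947). The paralogue Nr1d2, with transcripts of 41.8% GC and chosen here after its values were seen, was highest in 2 of those libraries, with 317 CPM in primary tumour 4 and 146 CPM in metastasis 4-1 against 50.4 to 124 CPM in the other 18. Nr1d1 overlaps Thra, a thyroid hormone receptor gene on the other strand, over 263 exonic bases. The libraries are stranded, but no label or note used here names the strand setting of the counting. Reads of the pair may therefore not be told apart.

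The 3 PAR bZIP genes differed from one another. Dbp (ENSMUSG00000059824.12, chr7:45705088-45710203, plus strand) measured 1.76, 5.12 and 13.4 CPM in primary tumours and 0.979, 4.49 and 11.1 CPM in metastases. Its log2 fold change was -0.54 (SE 0.368, adjusted p = 0.36), with 12 of 14 metastases below their own primary tumour. It was -0.82 (adjusted p = 0.0878) with the GC offset and -0.38 (adjusted p = 0.469) without the 3 tilted libraries. The highest values were in primary tumours 5 (13.4 CPM) and 6 (11.7 CPM) and metastasis 1-1 (11.1 CPM). Dbp shares 539 exonic bases with Sphk2, a sphingosine kinase gene on the other strand. Sphk2 lay between 15.2 and 24.5 CPM in 17 libraries and between 1.23 and 3.00 CPM in primary tumour 4 and metastases 4-1 and 3-2.

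Tef (ENSMUSG00000022389.14, chr15:81802421-81826863, plus strand) had the smallest adjusted p of the 10 genes. It measured 40.03, 63.0 and 121 CPM in primary tumours and 52.4, 114 and 172 CPM in metastases. Primary tumour 5, at 121 CPM, was the one primary tumour inside the bulk of the metastases; the other 5 lay between 40.03 and 69.1 CPM. The rise was 1.65-fold (log2 fold change 0.73, SE 0.175, adjusted p = 0.0133), with 13 of 14 metastases and 5 of 6 set means above their primary tumour. It held with the GC offset (0.59, adjusted p = 0.045) and without the 3 tilted libraries (0.83, adjusted p = 0.0111). It missed the threshold with the lung covariate (0.88, adjusted p = 0.0776), with summed metastases (0.69, adjusted p = 0.141), without sets 4 and 6 (0.76, adjusted p = 0.0514), and without set 1 (0.65, adjusted p = 0.0689), set 2 (0.60, adjusted p = 0.0919) or set 6 (0.71, adjusted p = 0.0545).

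Hlf (ENSMUSG00000003949.16, chr11:90336536-90390895, minus strand) had the lowest mean level per kilobase of exon in both groups. It measured 0.321 CPM (6 counts) in the lowest primary tumour, 1.30 at the median and 7.79 in the highest, against 3.40, 5.91 and 11.7 CPM in metastases. Primary tumours 2 and 3 (7.79 and 5.19 CPM) lay inside the range of the metastases, and the other 4 lay below all of them. The log2 fold change was 1.45 (SE 0.442, adjusted p = 0.0387); the difference was 3.41 in set 4 and -0.40 in set 2. Hlf passed with the GC offset (1.43, adjusted p = 0.038) but not without the 3 tilted libraries (1.19, adjusted p = 0.0843), with summed metastases (1.86, adjusted p = 0.158) or with the lung covariate (1.22, adjusted p = 0.310). It was also lost when set 1, 3, 4, 5 or 6 was left out, at an adjusted p from 0.0507 to 0.193, and when any of metastases 1-3, 1-4, 2-3, 6-1 and 6-2 was left out, at 0.0506 to 0.0577. Nor was Hlf called without sets 4 and 6, or with no filter on low counts.

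Lung markers moved with the groups. The mean log2 CPM of the 16 lung epithelial genes was 0.79 in metastasis 2-3 and -0.08 in metastasis 2-4, within the range of the primary tumours (-2.73 to 0.91), and was 3.63 to 7.89 in the other 12. The summed level of the 16 genes was 249.04 CPM in metastasis 2-3 and 545 CPM in metastasis 2-4, against 97.0 CPM in their own primary tumour 2. In these 2 metastases Per2 stood at 11.01 and 9.77 CPM, against 6.37 CPM in primary tumour 2. Tef stood at 131.8 and 131.9 CPM against 50.9 CPM, and Hlf at 10.4 and 7.10 CPM against 7.79 CPM. Metastases 2-1 and 2-2 had less of both, with 111.8 and 123.8 CPM of Tef and 4.73 and 3.48 CPM of Hlf. Metastasis 2-3 also had the highest sum of the muscle genes among metastases (4026 CPM). The part of lung tissue in these differences was not tested.

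**Figure D3:**
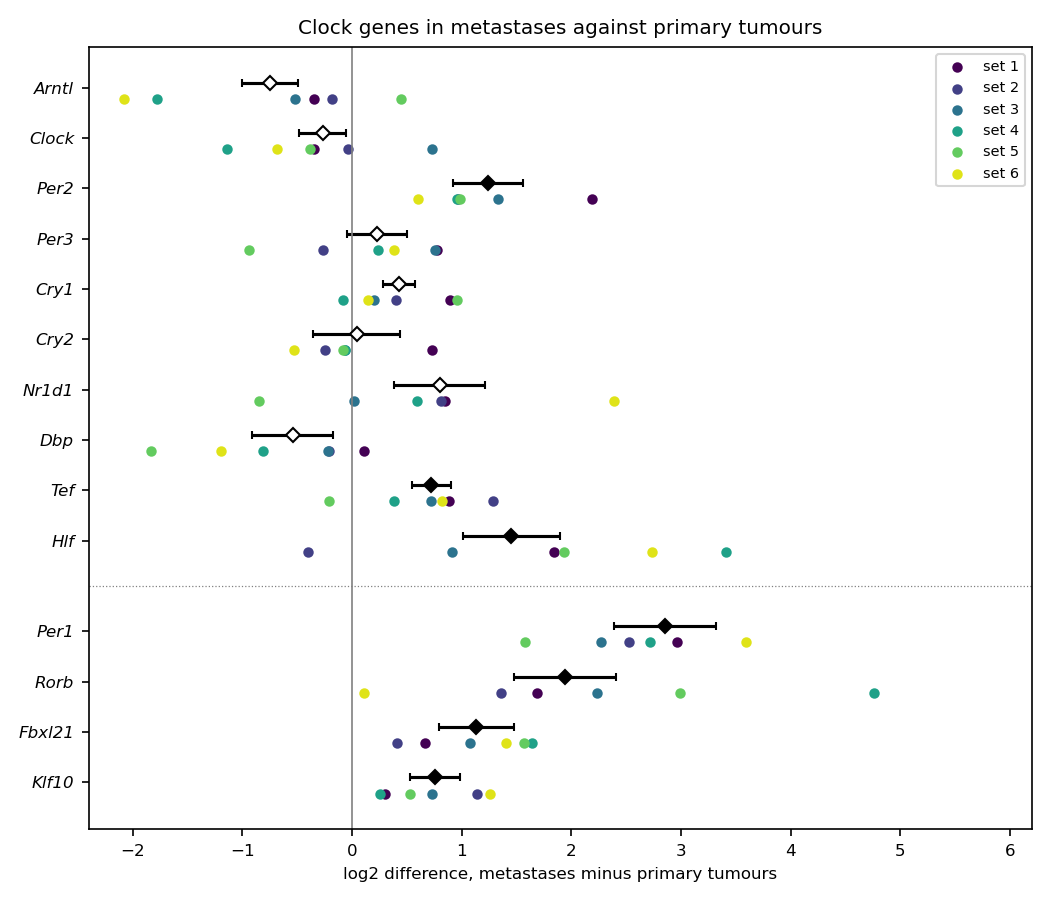
Diamonds show the log2 fold change (metastases minus primary tumours) of the edgeR fit with its standard error, filled where the adjusted p is under 0.05, and coloured points the difference between the mean of a set's metastases and its primary tumour in log2 CPM. Per2, Tef and Hlf are filled among the 10 genes above the dotted line; below it are the 4 other clock genes that passed, led by Per1 at 2.85.

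Of 30 other clock genes, listed by role, 4 were higher in metastases and 0 lower, beside 7.34% and 6.44% of all genes tested, with a median log2 fold change of 0.20. Among 7 repressors, Per1, the remaining PER gene, rose 7.22-fold (log2 fold change 2.85, SE 0.464, adjusted p = 0.00197). Per1 ranged from 0.534 to 18.1 CPM (median 10.7) in primary tumours and from 3.88 to 293 CPM (median 84.2) in metastases; 12 of 14 metastases were above every primary tumour, the exceptions being 3-2 and 4-1. Among 5 activators, Rorb, which encodes a ROR family receptor, rose 3.84-fold (1.94, SE 0.465, adjusted p = 0.0127), and Npas2, an alternative partner of ARNTL, did not pass (1.08, SE 0.388, adjusted p = 0.0749). Among 10 kinases and ubiquitin ligases, Fbxl21, an F-box protein that acts on cryptochromes, rose 2.19-fold (1.13, SE 0.341, adjusted p = 0.0370), although metastasis 2-3 had 0.994 CPM, below every primary tumour. Among 8 outputs, Klf10, a zinc finger factor under clock control, rose 1.69-fold (0.76, SE 0.226, adjusted p = 0.0352). All 4 had a positive difference in 6 of 6 sets and passed with the GC offset. The next genes of each role by p did not pass. Among activators this was the receptor gene Rora (-0.66, SE 0.507, adjusted p = 0.426). Among repressors these were Bhlhe40 (0.41, SE 0.224, adjusted p = 0.243) and Nfil3, which competes with DBP at D-boxes (-0.51, SE 0.423, adjusted p = 0.462). The ubiquitin ligase gene Btrc (0.32, SE 0.133, adjusted p = 0.120) and the kinase gene Csnk1e (0.47, SE 0.202, adjusted p = 0.135), both of which act on PER proteins, lay above 0. So did the output Por (0.74, SE 0.299, adjusted p = 0.113), whereas Nampt, an enzyme of NAD synthesis, lay below (-0.74, SE 0.334, adjusted p = 0.154).

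Genes that overlap a member were examined beside it. Thra had a log2 fold change of 0.56 (SE 0.243, adjusted p = 0.138), Sphk2 of -0.23 (SE 0.289, adjusted p = 0.642) and Camta1 of 0.23 (SE 0.224, adjusted p = 0.548). Within Clock, with no shared exon, Gm43658 gave 0.01 (SE 0.425, adjusted p = 0.990) and Ube2n-ps1 -0.28 (SE 0.424, adjusted p = 0.71). Arntl shares 33 exonic bases with Gm45355, Cry2 295 with D930015M05Rik and Tef 193 with Gm17597, each on the other strand. These 3 genes were too low to be tested.

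Whether the clock genes differed between tumours of different sets was asked among the 12 metastases of sets 1, 2, 3 and 6. The edgeR F test called 0 of the 10 genes at an adjusted p under 0.05, where 0.321% of 19919 genes were called. The DESeq2 likelihood ratio test called 0, where it called 24.5% of all genes. Without metastasis 3-1, Clock and Nr1d1 were called, in a fit that called 26.6% of all genes. The difference between metastases and primary tumour was also compared across the 4 sets, with the spread taken from the metastases of a set since each set has 1 primary tumour. It varied at an adjusted p under 0.05 for 0 of the 10 genes, where 1.46% of 18898 genes were called. The 2 smallest p of this edgeR F test were those of Arntl (p = 0.00683, adjusted p = 0.119) and Hlf (p = 0.0325, adjusted p = 0.22). Without metastasis 3-1, Arntl was called, in a fit that called 18.8% of all genes. For Arntl the difference was -2.07 in set 6 and between -0.52 and -0.18 in sets 1, 2 and 3.

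The phase relation of Arntl to Nr1d1 was read in each library as the log2 CPM of Arntl minus that of Nr1d1. Since the genes differ in length, such a value is compared only with those of other libraries. In primary tumours it was 1.10 in number 1, 1.85 in number 2, 2.10 in number 3, 7.26 in number 4, -0.21 in number 5 and 4.86 in number 6. Per kilobase of exon, primary tumour 5 had 10.1 CPM of Nr1d1 and 3.56 CPM of Arntl, and primary tumour 6 had 1.58 CPM of Nr1d1 and 19.1 CPM of Arntl. In set 1 the metastases gave -1.50, -0.32, 0.77 and 0.69. In set 2 they gave 1.11, 1.15, 0.27 and 0.86, and in set 6 0.50 and 0.29. These 10 values and that of the metastasis of set 5 (1.08) lay below those of primary tumours 2, 3, 4 and 6. Set 3 gave 0.03 and 3.08, and set 4 gave 4.89, the 2 high values being those of the tilted libraries 3-2 and 4-1. With the GC offset these became 1.61 and 2.76, primary tumour 4 fell to 4.76, and primary tumour 6 was at 4.72. Primary tumour 5 and metastasis 1-2, both below 0 before, then stood at 0.16 and 0.14.

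Arntl minus Dbp put the primary tumours in the same order, but number 6 lay close to number 3. It was 2.89, 3.31, 3.47, 6.18, 1.00 and 3.61 in primary tumours 1 to 6, and ran from 1.29 in metastasis 1-1 to 5.22 in metastasis 4-1 with a median of 3.09 in metastases. Primary tumour 5 and metastases 1-1 (1.29) and 3-1 (1.58) had the lowest values; the same libraries held the 3 lowest Arntl levels (26.8, 27.3 and 26.0 CPM) and 3 of the 4 highest Dbp levels. Primary tumour 6 was high in both genes, with 143.7 CPM of Arntl and 11.7 CPM of Dbp, and low in Nr1d1 (4.88 CPM). With the GC offset, Arntl minus Dbp was 3.42 in primary tumour 4, 2.56 in metastasis 4-1 and 2.83 in metastasis 3-2, inside the range of the other libraries (1.63 to 3.99).

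**Figure D4:**
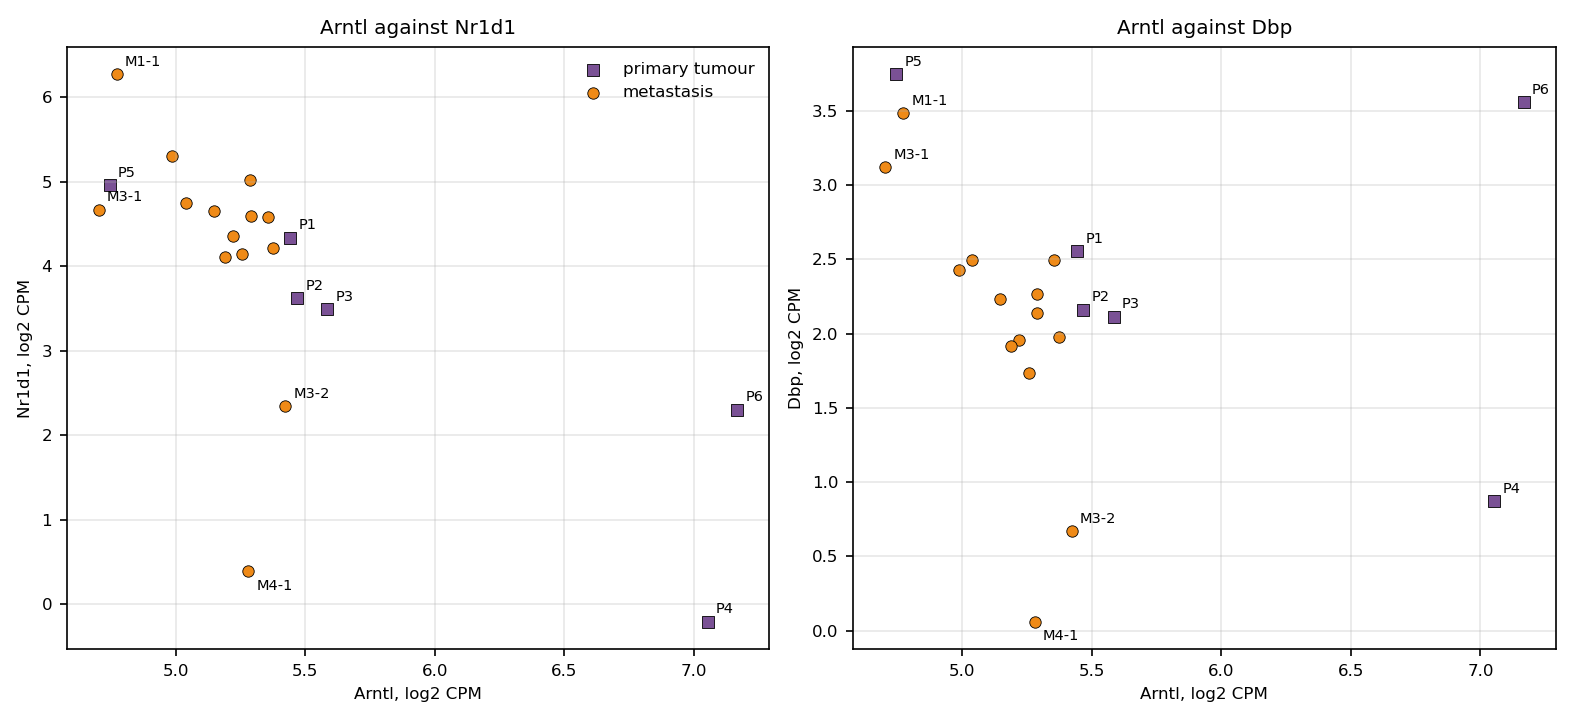
Arntl in log2 CPM on the horizontal axes against Nr1d1 (left) and Dbp (right) in log2 CPM on the vertical axes, 1 point per library, squares for primary tumours (P) and circles for metastases (M). On the left, Nr1d1 is highest in metastasis 1-1 (6.27) and lowest in primary tumour 4 (-0.21, from 15 counts). Metastases 4-1 and 3-2 lie below the other metastases there, and these and primary tumour 4 have the steepest GC tilt. On the right, primary tumour 6 is high in both genes.

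Correlations were tested for 12 pairs of genes over the 6 primary tumours and over the 6 set means of metastases, with p-values from all pairings and Benjamini-Hochberg adjustment over the 24 tests. Arntl in primary tumours formed 2 clusters (4 tumours at 26.8 to 47.9 CPM and 2 at 132.7 and 143.7 CPM), so no pooled r is given for its 8 pairs there, and these relations could not be tested within clusters of this size. Among metastases 1 pair passed: Dbp and Nr1d1 (Pearson r = 0.986, exact permutation p = 0.00139, adjusted p = 0.0333; Spearman rho = 1.00, exact permutation p = 0.00278, adjusted p = 0.0667). It rested on sets 1 and 4, without which r was 0.733, and was -0.525 with the GC offset (adjusted p = 0.569). Arntl and Per3 had r = -0.973 (exact permutation p = 0.0153, adjusted p = 0.117; rho = -0.771, p = 0.103, adjusted p = 0.352), and Arntl and Nr1d1 r = -0.510 (exact permutation p = 0.322, adjusted p = 0.483; rho = -0.143, p = 0.803, adjusted p = 0.917). With the GC offset, Arntl and Per3 had r = -0.361 (exact permutation p = 0.479, adjusted p = 0.605). Arntl and Nr1d1 then had r = -0.664 (exact permutation p = 0.140, adjusted p = 0.337). Over primary tumours, Dbp with Tef had r = 0.886 (exact permutation p = 0.0194, adjusted p = 0.117; rho = 0.943, p = 0.0167, adjusted p = 0.0800), which was 0.746 without tumours 4 and 5.

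Likeness over all 20 libraries was described with Pearson's r of log2 CPM after the mean of each group was taken off; libraries of a set are not independent, and r shares the depth and GC tilt of the libraries. Of the 45 pairs of members, 15 had r over 0.5 and 6 had r under -0.5. Before the GC offset, Per2, Cry2, Nr1d1, Dbp and Tef moved together, from 0.64 (Per2 with Tef) to 0.92 (Per2 with Cry2), while Clock ran against Nr1d1 (-0.78). Arntl ran with Cry1 (0.64) and against Nr1d1 (-0.66). With the GC offset Arntl still ran with Cry1 (0.72) and against Nr1d1 (-0.64), and Per2 with Cry2 (0.82) and Dbp (0.81). Dbp with Tef stood at 0.71, Cry2 with Dbp at 0.63, Cry2 with Tef at 0.44 and Per2 with Tef at 0.43, all lower than before. Clock with Nr1d1 stood at 0.04, and Nr1d1 with Cry2 at 0.39, with Tef at 0.17, with Per2 at 0.09 and with Dbp at -0.11. Per3 rose from 0.70 to 0.76 with Per2 and from 0.59 to 0.78 with Dbp. Arntl with Dbp was -0.38 over the 20 libraries and 0.42 with the GC offset, so over all 20 its sign depended on the offset. With the offset, it was -0.98 over the 4 primary tumours other than 4 and 6, which are too few to test. Among these, primary tumour 5 alone stood apart, low in Arntl (4.75 log2 CPM with the offset) and high in Dbp (3.12). Arntl with Dbp was -0.05 over the 6 set means of metastases with the offset. Primary tumours 4 and 6 stand apart in Arntl. Without them, and with no offset, Arntl with Nr1d1 was -0.51, with Dbp -0.73 and with Cry1 0.43. Over the 14 metastases alone, Arntl with Cry1 was 0.12, and it was 0.51 when metastasis 1-1 was left out as well.

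**Figure D5:**
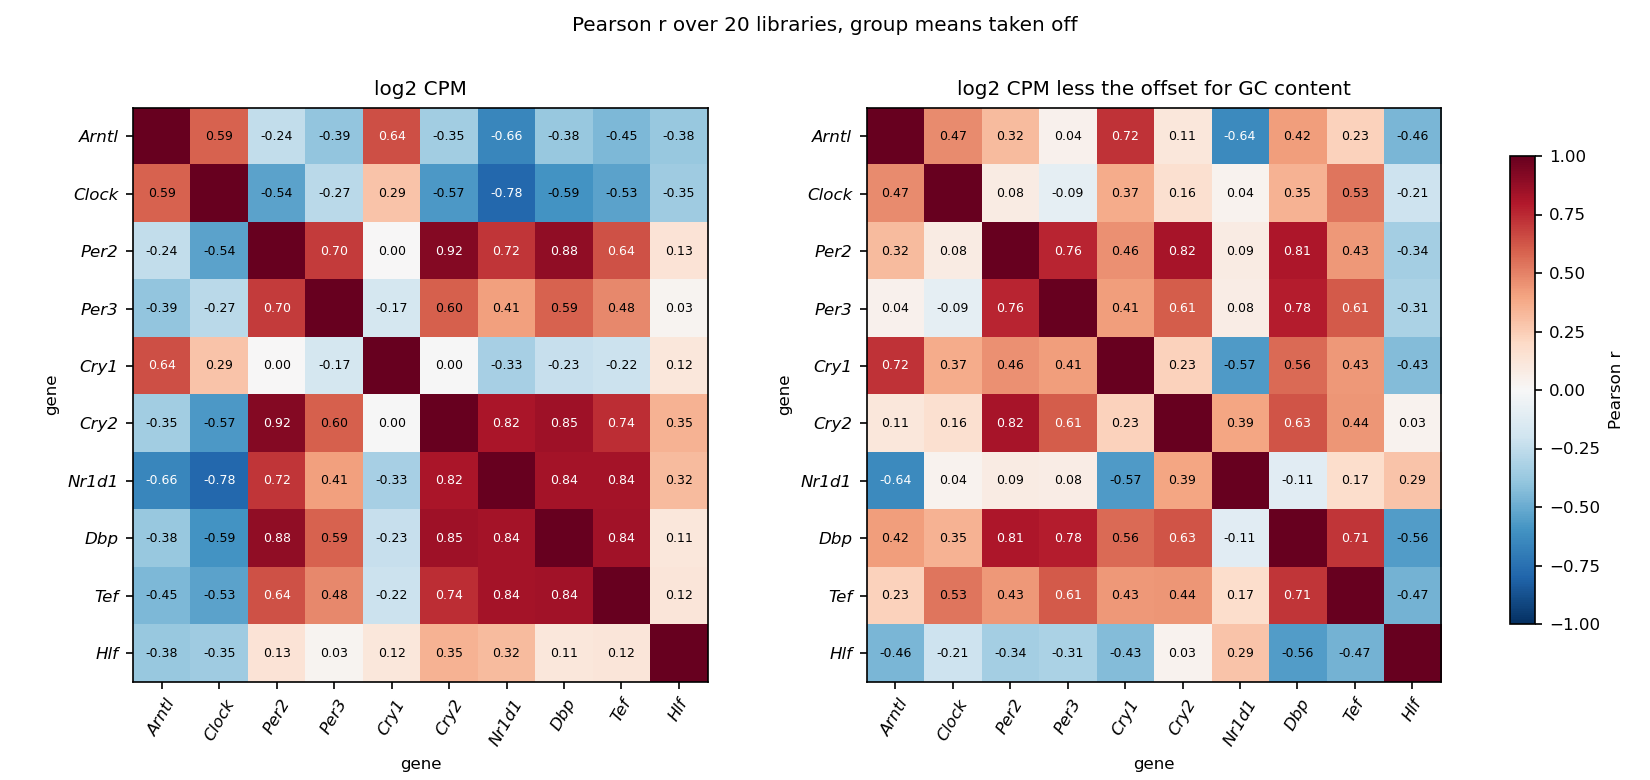
Pearson r between each pair of the 10 genes over 20 libraries after group means were taken off, from log2 CPM (left) and from log2 CPM less the GC offset (right); red is positive and blue negative. Arntl with Nr1d1 keeps a negative value in both (-0.66 and -0.64), whereas Nr1d1 with Dbp goes from 0.84 to -0.11.

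Likeness to genes beyond the members was taken with no GC offset, so these lists and ranks share the GC tilt of the libraries. The genes most like Nr1d1 among 10926 genes of sufficient level were Cdc42bpg (r = 0.97), Per1 (0.97), Csrnp1, Zc3h12a and Cdk18. Those of lowest r were Eri2 (-0.96), Nmd3, Slc30a5, Smc4 and Smchd1. For Arntl the highest were Trmt10a (0.94), Lars, Eprs, Nars and Dtwd1, and the lowest Heyl (-0.94), Itgax, Dmd, Ccdc88c and Tbc1d8. For Dbp they were Ccdc157 (0.93), Ccdc57, Krt80, Ulk4 and Tead3, and Fam111a (-0.92), Bzw1, Vkorc1l1, Nqo2 and Cacybp. Among 18451 genes, Per1 held rank 2 for Nr1d1 and rank 16 for Dbp, and Per2 held rank 32 for Dbp (0.88). For Dbp, Cry2 held rank 146, Tef 183 and Nr1d1 213. For Nr1d1 the members ranked lower, with Dbp at 1549, Tef at 1554, Cry2 at 1870 and Per2 at 3467. Clock held rank 1344 from the lowest for Nr1d1. For Arntl, Cry1 held rank 1427 and Nr1d1 rank 2243 from the lowest.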

How the data were processed

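Per the labels' protocols, Direct-zol columns gave total RNA, which was depleted with Ribo-Zero Gold and sequenced as stranded libraries. Per the submitters' processing notes, Trimmomatic 0.36, STAR (recorded as 5.5.4b) and HTSeq were used with mm10. No source used here names the annotation release or the strand setting. The deposited file holds the authors' raw counts per gene for 51826 identifiers. Of these, 51633 were given a symbol, 47648 with the same version in the annotation used here.

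Genes were filtered with filterByExpr (minimum count 10), scaled by TMM and tested with edgeR 4.0.16 in R 4.3.3 (robust quasi-likelihood test, matched set as a block, 13 residual degrees of freedom, Benjamini-Hochberg adjustment over all genes, threshold 0.05). DESeq2 1.42.0 was an alternative. Log2 CPM used a prior count of 2. The GC offset is each library's median deviation in 40 bins of transcript GC content; it, and the fits without libraries that stood apart, were chosen after seeing the data. Members and lists were chosen with earlier results of these data known. All members were named; other clock and glucocorticoid-induced genes were named where called or among the 3 of smallest p in their list, overlapping genes always, and for Arntl, Nr1d1 and Dbp the 5 genes of highest and of lowest r. Scripts were tested on simulated data.

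Metastases of a set share an origin and may share an animal, so the p-values cover only the variation among the libraries sampled; the chi-square per gene between metastases of a set was 12.1 to 611, and none were treated as duplicates. The matched sets come from the labels. The deviations of a set's primary tumour and its metastases correlated at -0.22 to 0.31 over 1000 genes. A library of this depth gives 0.0267 to 0.0534 CPM for 1 count; counts are not independent molecules.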

Additional observations from a re-analysis of the deposited data

Results flagged for a closer look

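In groups of 4 to 10 libraries, a value was marked where its gap to the nearest other value, divided by the range of the group, passed Dixon's 95% limit. Of 30 groups tested (each of the 10 genes in primary tumours and in the metastases of set 1 and of set 2), 5 held such a value; chance marks about 1 in 20.

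Metastasis 1-1 was high for 3 genes in set 1. Per2 stood at 5.67 log2 CPM there against 4.10 to 4.35 in the other 3 metastases (ratio 0.842), Per3 at 5.67 against 4.33 to 4.55 (ratio 0.837), and Cry2 at 6.79 against 3.98 to 4.29 (ratio 0.891). The same library had the highest mean of the lung epithelial genes (7.89 log2 CPM) and of the endothelial genes (8.43 log2 CPM), and its part in these values was not tested. Without it, the log2 fold change of Per2 was 1.16 (edgeR, adjusted p = 0.00874), that of Per3 0.16 (adjusted p = 0.706) and that of Cry2 -0.14 (adjusted p = 0.644).

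In set 2, Cry1 stood at 5.55 log2 CPM in metastasis 2-4 against 5.21 to 5.25 in the other 3 (ratio 0.886). Among primary tumours, Cry2 stood at 1.80 log2 CPM in number 4 against 3.94 to 4.72 in the other 5 (ratio 0.732); this is the library with the steepest GC tilt, and with the GC offset its Cry2 level was 4.28 against 3.62 to 4.81.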

How the results depend on the processing

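Against 3 of 10 genes called in metastases against primary tumours, 5 were called by DESeq2 and 5 with the muscle mean as a covariate, and 0 with summed metastases and 0 with the lung mean as a covariate. These fits called 22.6%, 27.7%, 2.04% and 6.88% of all genes, against 13.8% in the fit of the report. Leaving out a set or a metastasis gave 0 (without set 1, 5.45% of all genes) to 5 (without metastasis 3-2, 19.6%). The fit with no replicate block also called 3 (Arntl, Per2 and Tef): Arntl was gained (-1.01, adjusted p = 0.0136) and Hlf lost (1.22, adjusted p = 0.120), and the block changed no other call of the 10. Differences between sets were called for 0 to 2 genes when a metastasis was left out, and differences that vary between sets for 0 to 1. The fold change of Clock was 0.068 and that of Per3 -0.35 with the lung covariate. That of Cry2 was -1.003 with the lung covariate, -0.070 with the GC offset, -0.041 as a plain mean over the 6 sets, and -0.22 to 0.18 when a set or metastasis was left out. With DESeq2-type size factors 1 pair passed among primary tumours in place of 0. Of the 1 pair among metastases, 0 were left without the 2 sets farthest from the median and 0 with the GC offset. The cause of these shifts was not tested. Depth limits Hlf, with 6 counts in primary tumour 4, and Nr1d1, with 15.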

Other observations

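Of 12 glucocorticoid-induced genes, 4 were called higher in metastases and 0 lower (edgeR, adjusted p under 0.05), beside 7.34% and 6.44% of all genes tested. The other 8 did not pass, and the median log2 fold change of the list was 0.90. Fkbp5, a chaperone of the glucocorticoid receptor, measured 21.8, 78.0 and 97.7 CPM (lowest, median and highest) in primary tumours and 147, 297 and 361 CPM in metastases, with no overlap. Tsc22d3, which encodes the leucine zipper GILZ, rose 2.91-fold (log2 fold change 1.54, SE 0.230). Zbtb16, a zinc finger repressor, had a log2 fold change of 3.21 (SE 0.860), and Klf9, a factor that links the hormone to the clock, 1.09 (SE 0.348, adjusted p = 0.0475). The receptor gene Nr3c1 did not pass (-0.54, SE 0.206, adjusted p = 0.0946).

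Ciart, a repressor of ARNTL and CLOCK named here after its values were seen, measured 35.0 CPM in primary tumour 6 and between 1.04 and 7.69 CPM in the other 19 libraries. Primary tumour 6 is the library with the highest Arntl (143.7 CPM).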
